A study of Mus musculus with 2 samples.

Results

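The Egr and Nr4a transcription factors are the 7 genes Egr1, Egr2, Egr3, Egr4, Nr4a1, Nr4a2 and Nr4a3, taken by symbol from the 32285 genes of a spatial transcriptome of the mouse brain. All 7 were present in the table, and 6 of them had enough counts to be tested. The data are 2 coronal sections, 1 from each of 2 mice, captured on a Visium array whose spots each cover a small piece of tissue that can hold several cells. Both mice expressed hM3Dq, a Gq-coupled designer receptor, and were given its ligand CNO (clozapine N-oxide). They form 1 group, since no untreated section was analysed here. Both are labelled wild type: mouse 1 as C57BL/6J control, and mouse 2, by contrast, as an isogenic control that was CRISPR-Cas9 edited. They do not give the age or sex of the mice, the promoter or cell type that drove hM3Dq, the time from CNO to dissection, or which image side was injected. The sections were cut 1.9 mm posterior to bregma and the injection lay at 4.6 mm, so the injection site itself was not in them. The brains were frozen unfixed, without perfusion, and the sections were 10 µm thick.

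Egr proteins are zinc-finger factors that bind GC-rich DNA, and Nr4a proteins are orphan nuclear receptors that can bind DNA as monomers. Most of these genes are immediate early genes: synaptic activity switches them on within minutes through MAP kinases, SRF and CREB, and their proteins then act on later genes of plasticity and memory. Egr1 also has a steady level in forebrain neurons of an undisturbed animal, and Nr4a2 is a lasting identity gene of some neurons, among them the deepest cells of the neocortex and neurons of the medial habenula.

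Mouse 1 gave 30671753 unique molecules (UMIs) over 3712 spots used, and mouse 2 gave 55315952 over 3548. Spots were grouped without the 7 genes into 16 areas named from marker genes. The upper, layer 4, layer 5 and layer 6 areas of the neocortex held 122, 94, 113 and 135 spots in mouse 1. In mouse 2 they held 45, 52, 87 and 103. Most of these spots came from a large cluster that the naming rule left unnamed (285 and 148 spots). Its best marker set was hippocampal neuropil, with 3 of 7 markers, and 64.2% of its spots scored highest for a cortical set. The counts of each area were summed per mouse. These sums held from 469335 UMIs (meninges, mouse 1) to 19041633 (thalamus, mouse 2). At least 4 of 6 markers of layer 4, 6 of 8 of layer 5 and all but at most 1 marker of every other area lay above the rest of the section in both mice. The same markers were used to name the areas, so this describes them and is no separate support. The layers of the neocortex lay in the right order: the median distance from white matter was 1.74 spot pitches for layer 6 in both mice, and 7.03 and 6.03 for the upper area. The sections shared 3366 spot barcodes, which on these arrays name positions. A level is given below as CPM, the gene's share of the area's UMIs scaled to 1e+06, mouse 1 then mouse 2, and is compared within a gene, never between genes. Less of a transcript in an area cannot be told apart from fewer of the cells that make it.

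Promoter sequence is shown for 4 of the genes, because CREB and Egr proteins are known to act through short elements in such regions. The sequences are from RefSeq (GRCm38.p6) and are the 250 bases before an annotated start, 5′ to 3′ on the gene's strand: Egr4 at chr6:85513590-85513839 (minus strand), Nr4a1 at chr15:101266596-101266845 (plus), Nr4a2 at chr2:57124004-57124253 (minus) and Nr4a3 at chr4:48045055-48045304 (plus). The Nr4a1 window lies inside the annotated span of its gene (chr15:101253902-101274795) and the Nr4a3 window overlaps its own (chr4:48045078-48086447), since both genes have earlier starts. Egr3 (chr14:70077317-70082613) had no entry in the sequence table. Capitals mark the short form of the CREB element (CRE), TGACG on either strand, and the Egr element GCGNGGGCG on either strand.
Egr4: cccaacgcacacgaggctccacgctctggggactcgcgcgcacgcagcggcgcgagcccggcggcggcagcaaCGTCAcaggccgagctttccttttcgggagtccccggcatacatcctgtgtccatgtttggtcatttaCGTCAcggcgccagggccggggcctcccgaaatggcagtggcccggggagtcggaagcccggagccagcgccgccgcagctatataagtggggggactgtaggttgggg
Nr4a1: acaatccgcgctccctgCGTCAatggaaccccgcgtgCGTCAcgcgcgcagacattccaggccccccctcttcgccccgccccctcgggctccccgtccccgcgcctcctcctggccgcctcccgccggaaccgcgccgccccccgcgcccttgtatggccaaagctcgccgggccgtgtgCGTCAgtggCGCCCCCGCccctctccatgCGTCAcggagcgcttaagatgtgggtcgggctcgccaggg
Nr4a2: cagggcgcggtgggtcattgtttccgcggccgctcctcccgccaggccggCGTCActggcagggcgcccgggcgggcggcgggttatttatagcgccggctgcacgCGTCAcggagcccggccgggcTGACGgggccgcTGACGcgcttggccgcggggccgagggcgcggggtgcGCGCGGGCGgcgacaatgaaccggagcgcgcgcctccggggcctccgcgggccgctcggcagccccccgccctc
Nr4a3: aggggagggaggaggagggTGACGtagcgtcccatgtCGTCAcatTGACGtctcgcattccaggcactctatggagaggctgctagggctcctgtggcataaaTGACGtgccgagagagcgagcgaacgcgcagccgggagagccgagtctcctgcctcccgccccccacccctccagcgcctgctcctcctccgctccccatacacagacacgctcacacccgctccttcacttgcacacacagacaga
The short CRE form occurred 4 times in each of the 3 Nr4a windows and 2 times in that of Egr4. Of 32851 promoter windows of this length, 17.8% held it at least once and 0.137% at least 4 times. The Egr element occurred 1 time in Nr4a1 and 1 time in Nr4a2, and in 4.7% of all windows. Neither the full CRE, TGACGTCA (1.55% of all windows), nor the Nr4a monomer element NBRE, AAAGGTCA (1.34%), was found in any of the 4. Egr2 (chr10:67534469-67542188) has 5 annotated starts, 3 of them with windows that overlap. A CArG box, the element of SRF, was in 4 of the 5 windows, and the 3 that overlap share the same box. None of the 4 windows printed above held a CArG box, which 1.47% of all windows hold. The 3 overlapping windows each held the short CRE form 2 times. These are matches of letters and not measured binding.

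Egr1, the factor most used as a marker of neuronal activity, was highest in the layer 6 area, at 352 and 408 CPM. Both mice placed layer 6 above every other area. Layer 4 (199.98 and 315 CPM), CA1 (225 and 287), layer 5 (208 and 277) and the upper area (169 and 258) followed, and their ranges overlapped. The hippocampal neuropil lay at 171 and 184 CPM, and the retrosplenial cortex at 148 and 155. Below these, CA2/CA3 (71.2 and 98.6), white matter (64.8 and 92.8) and the dentate granule area (67.9 and 82.5) overlapped. The thalamus had 50.7 and 53.7 CPM, and its 9 clusters ran from 36.8 to 67.9 in mouse 1 and from 41.8 to 73.5 in mouse 2. Meninges, choroid plexus, hypothalamus and habenula lay between 15.5 and 57.2 CPM, and the thalamic reticular nucleus was lowest at 5.10 and 11.7.

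Egr2, known for its part in hindbrain patterning and myelination, was scarce: 38 UMIs in mouse 1 and 51 in mouse 2 over whole sections. The upper neocortical area held 10 of these in mouse 1 (17.1 CPM) and 2 in mouse 2 (3.96 CPM). No UMI fell in the thalamus or the reticular nucleus of either mouse, which allows up to 0.313 and 0.158 CPM in the thalamus by 3 counts. These counts are too few for a test, and every neighbouring pair of areas in the order overlapped but that of hypothalamus and habenula.

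Egr3, needed for the development of muscle spindles, was highest in the upper neocortical area, at 147 and 188 CPM. Layer 6 (115 and 155), CA1 (102 and 117), layer 4 (80.8 and 127) and layer 5 (78.7 and 108) came next. The 9 areas of cortex and hippocampus formed a run in which each overlapped the next, down to the retrosplenial cortex at 60.5 and 74.1 CPM. A gap then followed to white matter at 17.1 and 30.8. Thalamus had 3.86 and 6.41 CPM and the reticular nucleus 2.55 and 4.83.

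Egr4, the Egr factor without a binding site for the Nab corepressors, was highest in CA1, at 48.0 and 52.3 CPM. The upper area followed at 47.8 and 39.6, then layer 4 (38.5 and 37.7) and layer 5 (29.7 and 35.6). These 4 areas did not overlap one another. Layer 6 (23.6 and 23.8), CA2/CA3 (29.0 and 14.5) and retrosplenial cortex (22.1 and 17.3) overlapped, and the dentate granule area had 14.4 and 16.5. Thalamus was near the bottom, at 1.36 and 1.52 CPM.

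Nr4a1, a rapidly induced receptor gene, was highest in CA1, at 60.01 and 72.4 CPM, above every other area in both mice. Layer 4 came next, at 38.5 and 37.7. From layer 5 (25.8 and 33.2) through the retrosplenial cortex, upper area, neuropil, layer 6, white matter, CA2/CA3 and choroid plexus to the dentate granule area (14.4 and 12.5), neighbours overlapped. The 5 remaining areas lay between 3.55 and 13.6 CPM.

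Nr4a2 had its highest level outside cortex and hippocampus: 134 and 129 CPM in the habenula. Within the habenula, the cluster led by Gm5741, Gng8 and Tac2 had 180 and 203 CPM, and that led by Gpr151, Cbln2 and Calb2 had 88.2 and 67.8. The habenula was in no comparison between areas. Tac2 and Gng8 are known from the medial habenula and Gpr151 from the lateral part. Gpr151 was also among the leading genes of the cluster led by Gm5741. Gng8 was also among the habenula markers found in the cluster led by Gpr151. Gpr151 and Gng8 thus do not separate these clusters. CA1 (42.0 and 42.3) and layer 6 (28.7 and 31.6) followed, each without overlap with its neighbours in the order. From the neuropil (22.1 and 25.8) down to choroid plexus (6.88 and 12.4) neighbours overlapped, with the upper area at 8.54 and 11.9. Thalamus (1.77 and 2.84) and hypothalamus (1.64 and 2.41) were low.

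Nr4a3 was highest in CA2/CA3, at 89.3 and 90.8 CPM, with CA1 second at 52.5 and 67.7. Neither overlapped its neighbour in the order. Layer 6 (36.3 and 31.6), habenula (24.8 and 34.4), layer 5 (31.0 and 28.2) and neuropil (26.5 and 32.3) overlapped, and so did the areas below them, down to the hypothalamus at 4.92 and 6.72. In the habenula it was again higher in the Gm5741, Gng8 and Tac2 cluster (40.1 and 65.2 CPM) than in the other (9.12 and 9.35). Egr1 in these clusters was 28.2 and 22.1 CPM against 28.9 and 44.4.

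**Figure D1:**
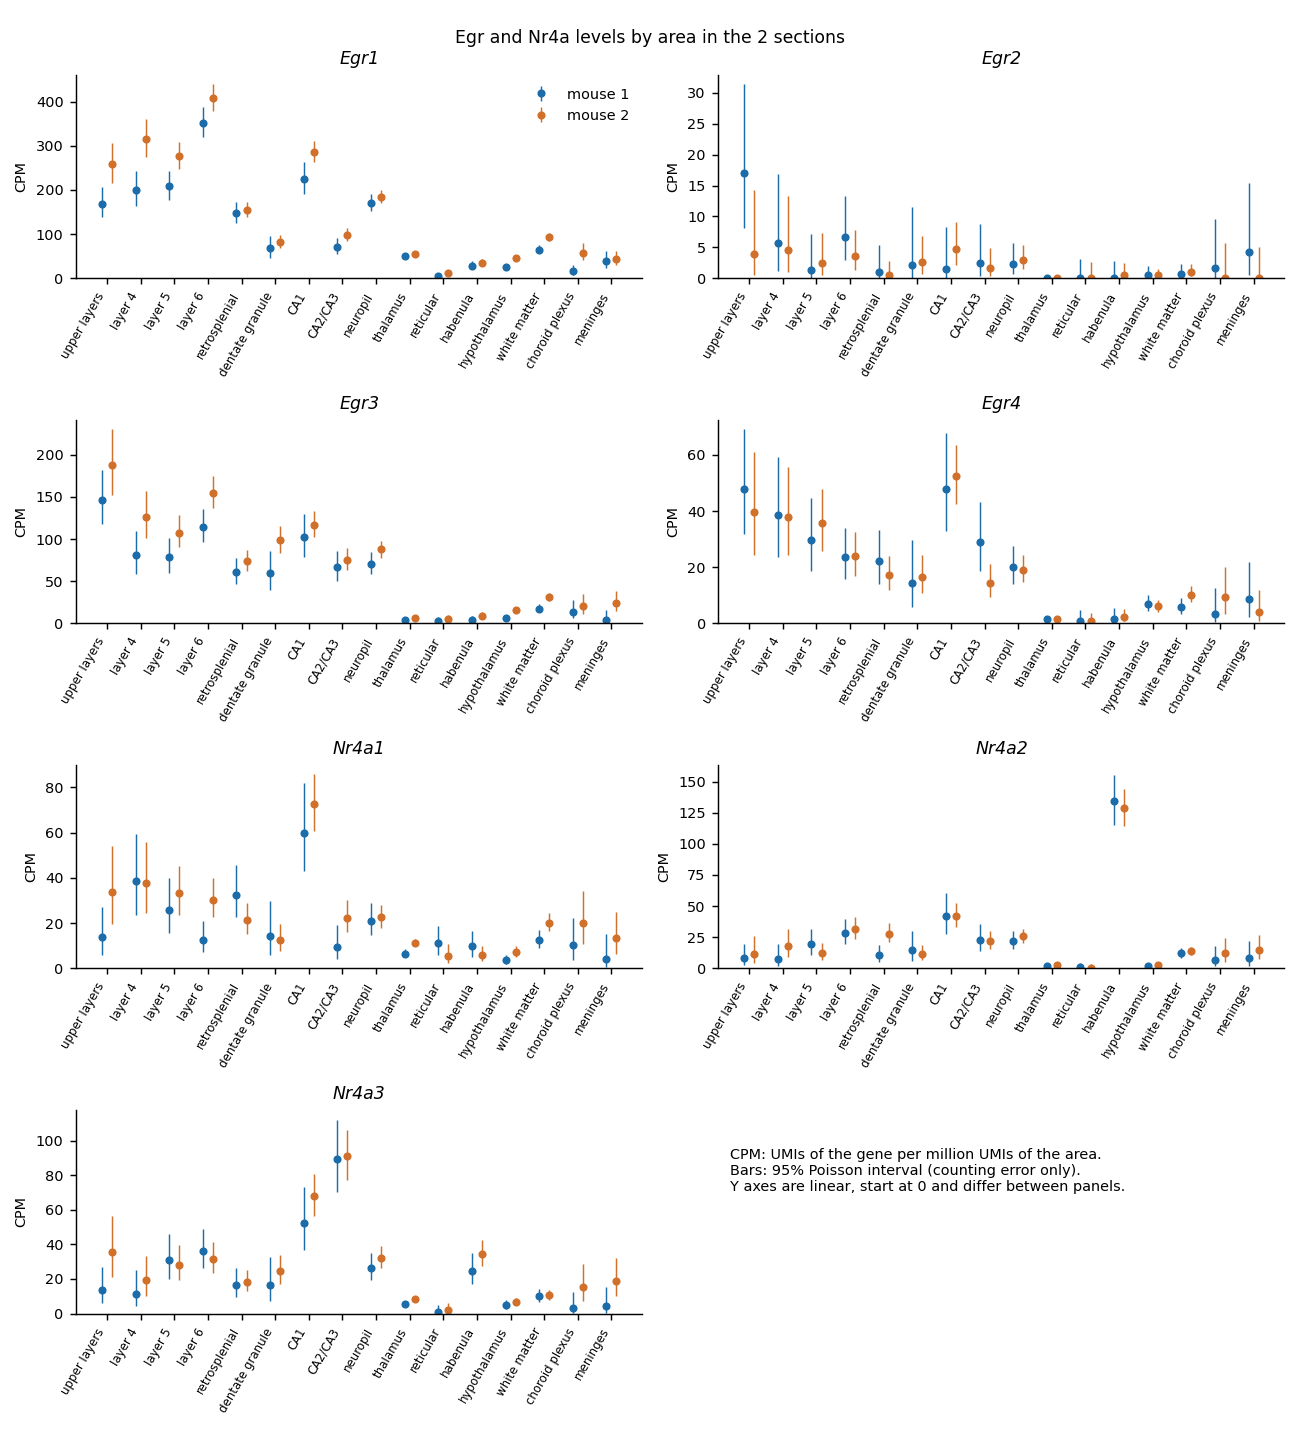
Level of each gene in each of the 16 areas, as CPM, with 1 point per mouse. Nr4a2 peaks in the habenula at 134 and 129 CPM, Nr4a3 in CA2/CA3 at 89.3 and 90.8, and Egr1 in layer 6 at 352 and 408.

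**Figure D2:**
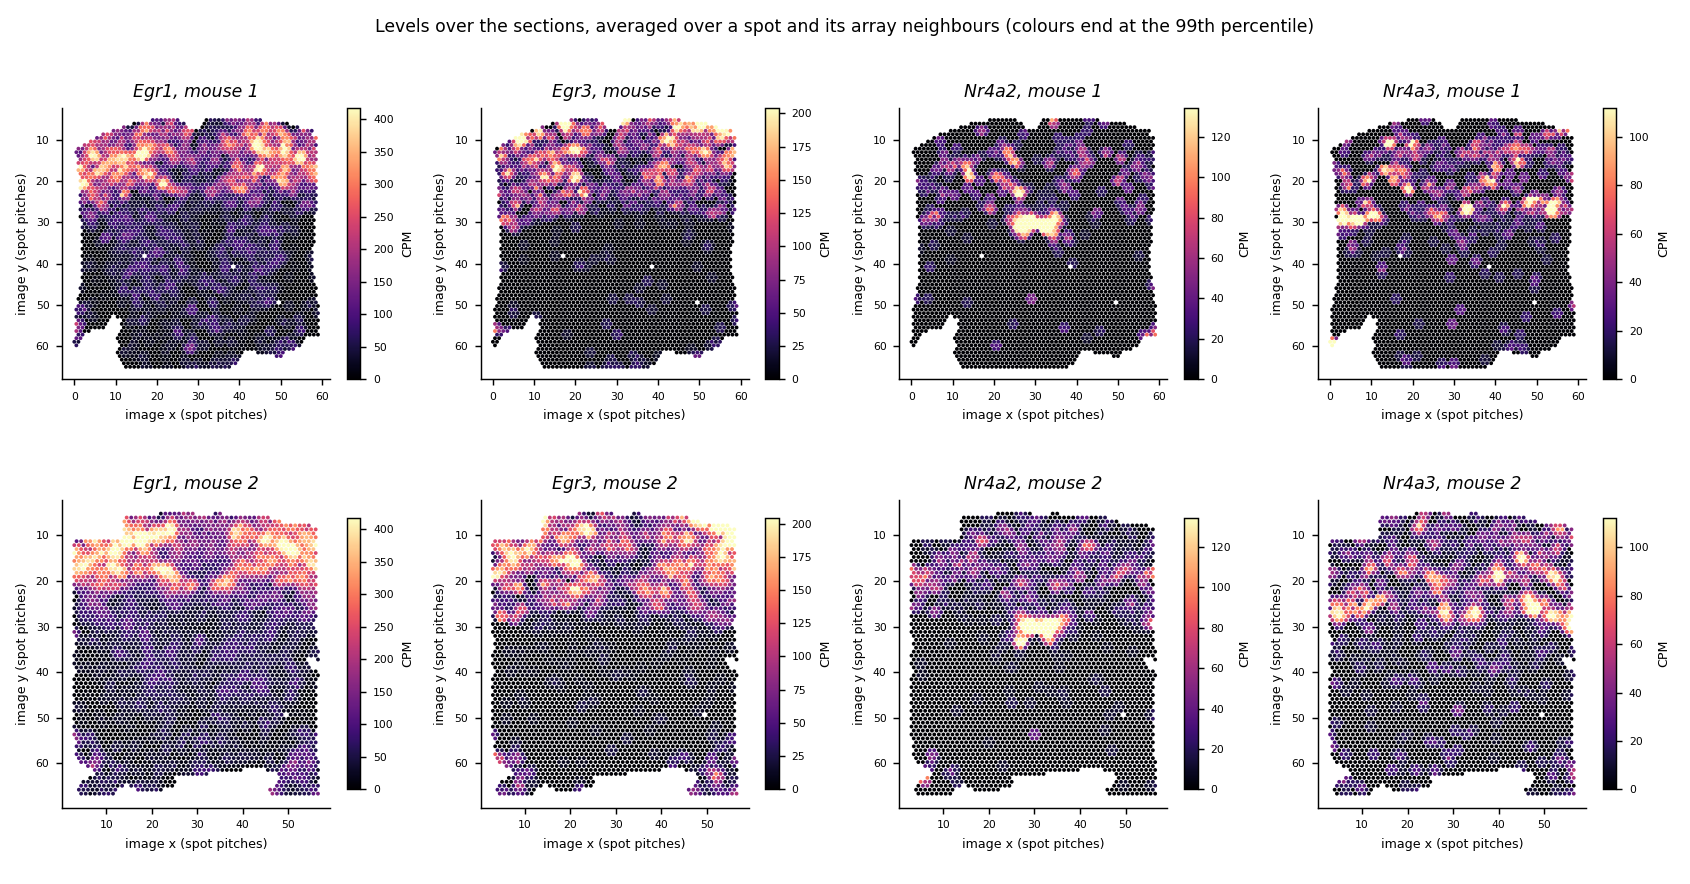
Positions of spots on each section in spot pitches, coloured by the CPM of Egr1, Egr3, Nr4a2 or Nr4a3 averaged over a spot and its array neighbours. The habenula stands out for Nr4a2, the CA2/CA3 band for Nr4a3, and the cortex for Egr1 and Egr3.

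Mouse 2 had more Egr1 and Egr3 in 16 of 16 areas each, Nr4a3 in 14, Nr4a1 and Nr4a2 in 11, Egr4 in 8 and Egr2 in 6. Over the whole section the ratio of mouse 2 to mouse 1 was 1.22 for Egr1 (79.6 and 96.8 CPM), 1.37 for Egr3 (26.9 and 36.9) and 0.994 for Egr4 (9.72 and 9.65). With 1 section per mouse this difference has no test. Genotype label, animal, sequencing depth and plane of section cannot be told apart in it.

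The areas were then compared in 1 fit over all genes, with mouse as a block because the areas of a mouse come from the same section. A gene is called where its Benjamini-Hochberg adjusted p from edgeR's quasi-likelihood test over 12501 genes is under 0.05. Of 72 pairs of gene and comparison, 37 were called, and in all 37 both mice differed in the same direction. With mouse as a block, the difference in level between these 2 sections is taken out. The p-values rest on the scatter left in the area differences of the 2 sections. That scatter is pooled over all areas (15 residual degrees of freedom) and moderated with information from all genes (median prior degrees of freedom 68.4). Small p-values therefore do not measure the spread between animals or between treatments.

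Among the neocortical layers, Egr1 and Nr4a2 were higher and Egr4 was lower in layer 6 than in the other 3 layer areas, and Egr3 was higher in the upper area. Layers 4 and 5 gave no call. In layer 6, Egr1 was 1.51-fold higher (log2 0.60 ± 0.10 SE, adjusted p = 6.3e-06). Nr4a2, at 28.7 and 31.6 CPM against 7.69 to 19.3 in the other layers, was 2.23-fold higher (log2 1.16 ± 0.27, adjusted p = 0.00197). Egr4 was 1.70-fold lower (log2 -0.77 ± 0.22, adjusted p = 0.0203), and in each mouse layer 6 was its lowest layer. That made 3 of 6 members, beside 6.75% of all genes; the members' median log2 difference was 0.30, beside 0.026 over all genes. Without the replicate block the Egr1 and Egr4 calls in layer 6 were lost (adjusted p = 0.0619 and 0.0589), and the sign of Egr4 turned where every spot went to its highest marker score (log2 0.36). In that setting the log2 differences grew to 1.37 for Egr1 and 2.02 for Nr4a2. Oligodendrocyte markers summed to 6527 and 6986 CPM in layer 6 and to 1286 and 2220 in the upper area; their part in these differences was not tested.

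In the upper area, Egr3 was 1.603-fold higher than in the other layers (log2 0.68 ± 0.15, adjusted p = 0.00202), the single call among 6 members beside 2.54% of all genes. Both mice had their highest layer value of Egr3 there. Without the replicate block this call was lost (adjusted p = 0.247), and where every spot went to its highest marker score its sign turned (log2 -0.27). Egr1 there had a log2 difference of -0.39 ± 0.13 (adjusted p = 0.0929). The members' median was -0.13, beside -0.00078 over all genes.

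In layer 4, 0 of 6 members were called by edgeR or DESeq2, beside 0.104% of all genes, and 2 had an unadjusted p under 0.05: Nr4a1 (log2 0.63 ± 0.30, adjusted p = 0.740) and Nr4a3 (-0.81 ± 0.35, adjusted p = 0.676). In layer 5 the count was also 0 of 6 by both tools, beside 0.224% of all genes. Egr3 (-0.51 ± 0.14, adjusted p = 0.107) was the member there with an unadjusted p under 0.05. The medians over members were -0.15 and -0.061, beside 0.012 and 0.019 over all genes.

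Distance from white matter showed the neocortical course of Egr1 and Nr4a2 in finer steps. Egr1 in mouse 1 was 341 CPM within 1.5 spot pitches of white matter, 208 at 3.5 to 4.5 and 139 at 6.5 to 7.5. In mouse 2 it went from 398 through 277 to 201 at 5.5 to 6.5, the last step measured. Nr4a2 went from 39.5 to 6.62 CPM over the same span in mouse 1 and from 34.0 to 9.71 in mouse 2. Neither course was strictly downward, since Egr1 was 263 and 290 CPM at 4.5 to 5.5. Egr3 had no such course: it was 111 and 135 CPM beside white matter, 58.0 and 104 at 3.5 to 4.5, and 149 (mouse 1) and 159 (mouse 2) in the last step.

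**Figure D3:**
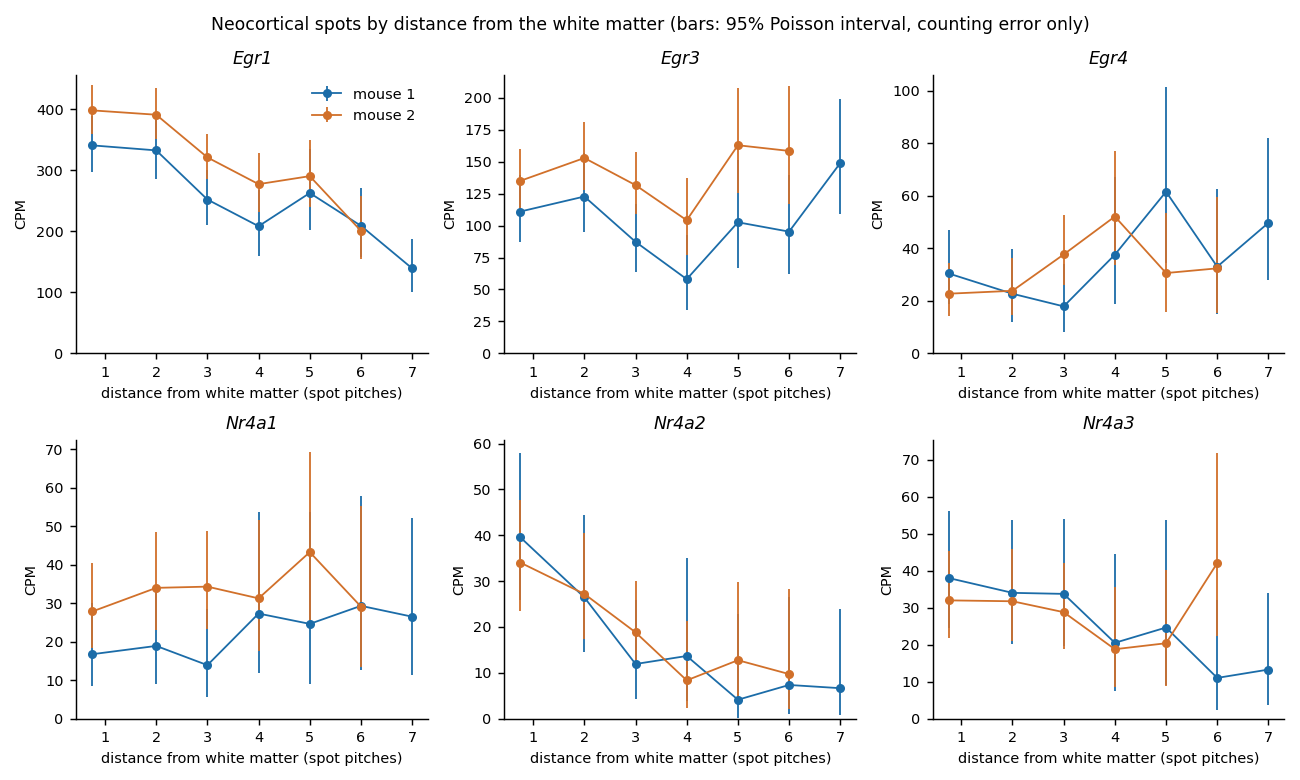
Level of each tested gene in the neocortical layer areas against distance from white matter in spot pitches, 1 line per mouse with exact 95% Poisson intervals that cover counting error only. Egr1 and Nr4a2 are highest beside white matter, at 341 and 398 CPM and at 39.5 and 34.0 CPM.

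In the hippocampus, each area was tested against the average of the other 3. CA1 was above that average for all 6 tested members, and the dentate granule area was below it for 5 of 6. These comparisons use the same areas and are not independent: a high CA1 raises the average set against the dentate granule area. CA1 pyramidal cells give the main output of the hippocampus and granule cells take its main input. CA2/CA3 split the members: Nr4a3 was higher and Egr1 lower. The neuropil, which holds dendrites, axons and glia with few cell bodies, had more Egr1 and less Nr4a3 than the average of the 3 cell layers.

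For CA1, the largest difference was that of Nr4a1, with 60.01 and 72.4 CPM against 9.65 to 22.5 in the other hippocampal areas. It was 3.69-fold higher (log2 1.88 ± 0.21, adjusted p = 4.7e-12). Egr4 was 2.62-fold higher (log2 1.39 ± 0.20, adjusted p = 4.02e-08), Egr1 2.28-fold (1.19 ± 0.11, adjusted p = 5.5e-15) and Nr4a2 2.06-fold (1.04 ± 0.21, adjusted p = 7.36e-05). For these 4 genes both mice had CA1 above every other hippocampal area. Nr4a3 was 1.48-fold higher than the mean of the others (log2 0.57 ± 0.17, adjusted p = 0.0119), although CA2/CA3 was above CA1 for this gene. Egr3 was 1.302-fold higher (log2 0.38 ± 0.13, adjusted p = 0.0345). All 6 members were thus called higher, beside 8.72% of all genes called higher and 16.6% in either direction, with a median of 1.12 beside 0.012 over all genes. The calls of Egr3 and Nr4a3 were lost without the replicate block (adjusted p = 0.294 and 0.0853) and in DESeq2 (0.224 and 0.0647), and also with spots at their highest marker score (0.128 and 0.628). That of Egr3 was lost with relative log expression factors (0.0572) and at a lower clustering resolution (0.0545) too.

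In the dentate granule area, Nr4a3 was 2.58-fold lower (log2 -1.37 ± 0.23, adjusted p = 1.3e-06), with 16.5 and 24.4 CPM against 26.5 to 90.8 in the other hippocampal areas. Nr4a1 was 2.41-fold lower (-1.27 ± 0.32, adjusted p = 0.00144), Nr4a2 2.33-fold (-1.22 ± 0.29, adjusted p = 0.000869) and Egr1 2.14-fold (-1.10 ± 0.15, adjusted p = 4.5e-09). Egr4 was 1.69-fold lower (-0.76 ± 0.28, adjusted p = 0.0399); this call was lost without the replicate block (adjusted p = 0.0593) and in DESeq2 (0.0762). Single areas did not all keep this order, since the dentate granule area lay above CA2/CA3 for Nr4a1 in mouse 1 (14.4 and 9.65 CPM) and for Egr4 in mouse 2 (16.5 and 14.5 CPM). Egr3 did not follow: with 59.7 and 98.4 CPM it was the lowest of the 4 areas in mouse 1 and next to CA1 in mouse 2 (log2 -0.06 ± 0.15, adjusted p = 0.840). The 5 lower members stand beside 8.96% of all genes called lower and 20.4% called either way, with a median of -1.16 beside 0.010 over all genes. From mouse 1 alone, as log2 CPM with a prior count of 2, Nr4a1 differed by -0.65. With spots at their highest marker score the Nr4a2 call was lost (adjusted p = 0.0883). Neuron markers summed to 2144 and 2957 CPM in the dentate granule area, 2983 and 3431 in CA1 and 4560 and 5423 in CA2/CA3; their part in the result was not tested.

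CA2/CA3 pyramidal cells receive mossy fibres and drive CA1. There Nr4a3 was 2.56-fold higher (log2 1.36 ± 0.16, adjusted p = 5.42e-11) and Egr1 1.79-fold lower (-0.84 ± 0.13, adjusted p = 5.15e-07). Both held in each mouse. The other 4 tested members were not called, with Egr3 at -0.38 ± 0.14 (adjusted p = 0.0606). The 2 calls stand beside 13% of all genes, and the median was -0.40 beside -0.019. In the neuropil, Egr1 was 1.68-fold higher than the average of the 3 cell layers (0.75 ± 0.11, adjusted p = 1.59e-08): its 171 and 184 CPM lay under CA1 and over the other cell layers. Nr4a3, at 26.5 and 32.3 CPM above the dentate granule area in both mice, was 1.47-fold lower than that average (-0.56 ± 0.17, adjusted p = 0.00823), a call lost without the replicate block (adjusted p = 0.0504) and, with a log2 of 0.030, with spots at their highest marker score. These 2 of 6 stand beside 28.4% of all genes, and the median of 0.030 beside 0.00011 over all genes.

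The retrosplenial cortex, which links the hippocampal formation with the neocortex, had less of the 3 tested Egr members than the neocortical layer areas. Egr3 was 1.88-fold lower (log2 -0.91 ± 0.13, adjusted p = 2.73e-07), Egr1 1.83-fold (-0.87 ± 0.11, adjusted p = 2.19e-09) and Egr4 1.82-fold (-0.87 ± 0.22, adjusted p = 0.00513). For all 3 genes, both mice had the retrosplenial value below all 4 layers. None of the 3 Nr4a members was called, and Nr4a1 and Nr4a2 differed in opposite directions in the 2 mice. Whether the Egr members differ from the Nr4a members here was not tested. The 3 calls stand beside 8.83% of all genes called (4.36% lower), and the median was -0.71 beside 0.025. All 3 were lost where spots went to their highest marker score.

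Against the neocortical layers, the 3 hippocampal cell layer areas together had less Egr1 (2.41-fold, log2 -1.27 ± 0.08, adjusted p = 3.83e-23), Egr3 (1.54-fold, -0.63 ± 0.10, adjusted p = 8.97e-08) and Egr4 (1.44-fold, -0.52 ± 0.17, adjusted p = 0.0113). They had 1.85-fold more Nr4a3 (0.89 ± 0.16, adjusted p = 6.64e-06). Nr4a1 (-0.30 ± 0.19, adjusted p = 0.285) and Nr4a2 (0.41 ± 0.21, adjusted p = 0.158) were not called. That made 4 of 6 beside 26.3% of all genes, with a median of -0.41 beside 0.028. With spots at their highest marker score, the Egr3 difference turned to 0.084 and that of Egr4 shrank to -0.014, neither called, and that of Egr1 shrank to -0.55, still called.

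**Figure D4:**
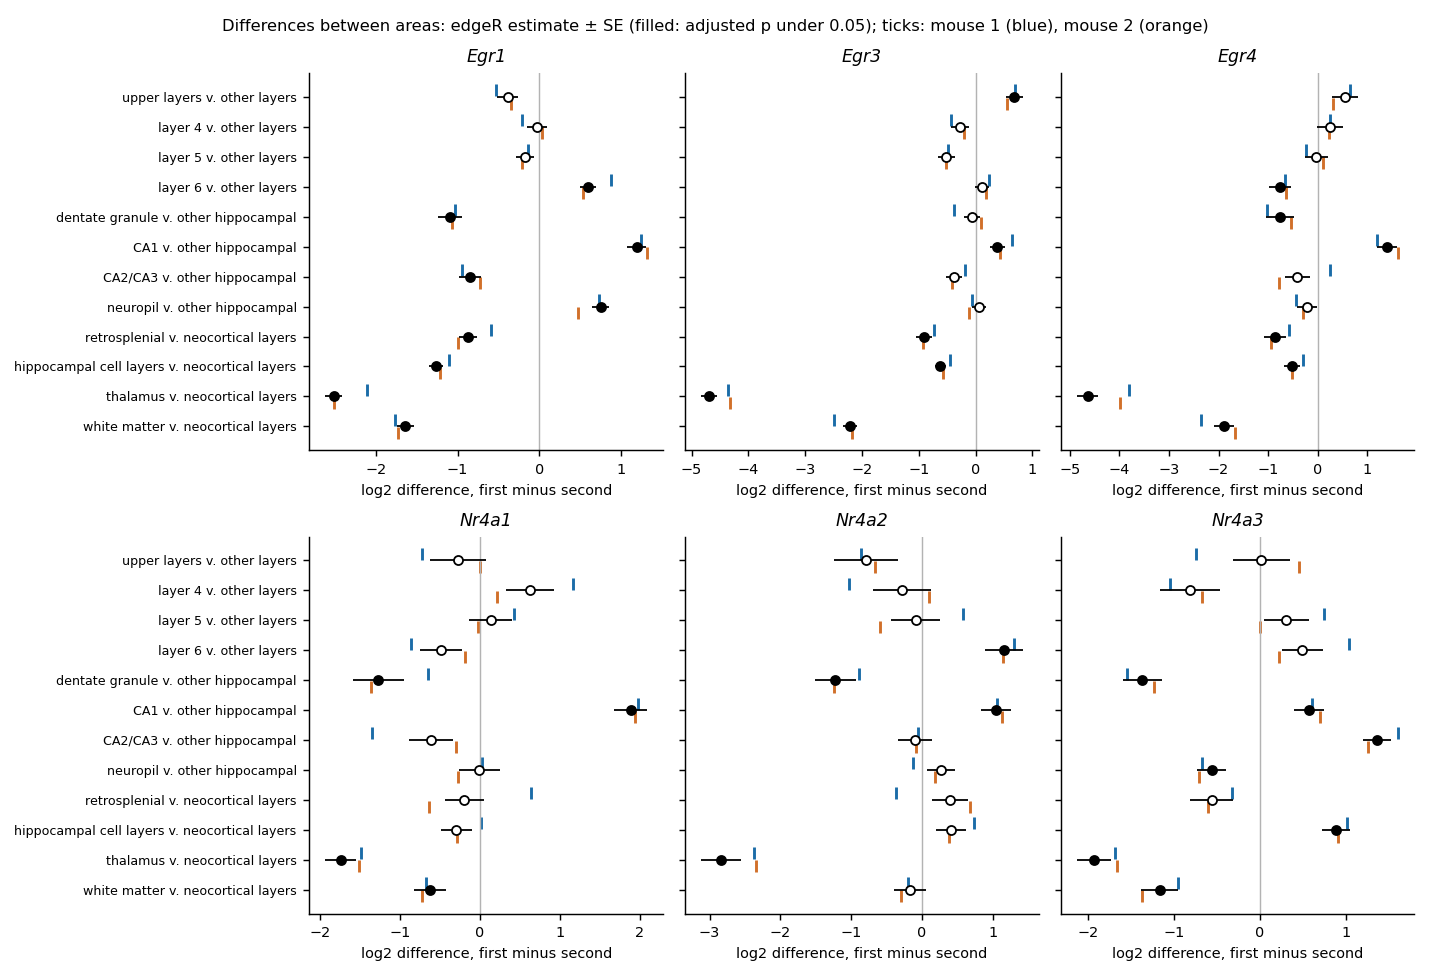
Log2 difference of each tested gene in each comparison of areas with its standard error, filled where the adjusted p is under 0.05. Ticks give each mouse alone, as differences of log2 CPM with a prior count of 2. All 6 genes are higher in CA1 and lower in thalamus.

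The thalamus, which relays sensory and motor signals to the cortex, had less of all 6 tested members than the neocortical layers. Egr3 was 25.9-fold lower (log2 -4.69 ± 0.14, adjusted p = 1.03e-47), at 3.86 and 6.41 CPM against 78.7 to 188. Egr4 was 24.98-fold lower (-4.64 ± 0.22, adjusted p = 1.91e-33), Nr4a2 7.16-fold (-2.84 ± 0.28, adjusted p = 4.72e-15) and Egr1 5.73-fold (-2.52 ± 0.10, adjusted p = 1.24e-38). Nr4a3 was 3.81-fold lower (-1.93 ± 0.20, adjusted p = 3.01e-14) and Nr4a1 3.34-fold (-1.74 ± 0.19, adjusted p = 4.39e-13). No thalamic value of any of the 6 reached a neocortical one. The 6 calls stand beside 23.3% of all genes called lower and 48.8% either way, with a median of -2.68 beside 0.053. Each mouse alone, as log2 CPM with a prior count of 2, gave -3.80 and -3.98 for Egr4. With spots at their highest marker score the log2 differences shrank to -1.75 for Egr1, -4.00 for Egr3 and -1.13 for Nr4a1, all still called. Neuron markers summed to 4842 and 4947 CPM in thalamus, against 3278 to 4982 in the layers. Interneuron markers summed to 475 and 439 CPM, against 1005 to 1480 in the layers, and oligodendrocyte markers to 8118 and 8286 against 1286 to 6986. The part of these in the result was not tested. Among its 9 clusters Egr3 ran from 1.29 to 11.8 CPM in mouse 1 and from 2.97 to 25.4 in mouse 2.

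White matter, the tract of myelinated axons under the cortex and in the ventral brain, had less of 5 members. Egr3 was 4.63-fold lower than in the layers (log2 -2.21 ± 0.13, adjusted p = 8.56e-27), Egr4 3.73-fold (-1.90 ± 0.20, adjusted p = 1.84e-13) and Egr1 3.12-fold (-1.64 ± 0.10, adjusted p = 3.03e-25). Nr4a3 was 2.24-fold lower (-1.16 ± 0.22, adjusted p = 3.93e-06). Nr4a1 was 1.54-fold lower (-0.62 ± 0.20, adjusted p = 0.00697), a call lost without the replicate block (adjusted p = 0.0630), in DESeq2 (0.0769) and with spots at their highest marker score (0.673). Nr4a2 was not called (-0.17 ± 0.23, adjusted p = 0.574), at 12.1 and 13.9 CPM against 7.69 to 31.6 in the layers. It was called lower with each section clustered alone (-0.85, adjusted p = 0.00608) and at a lower clustering resolution (-0.86, adjusted p = 0.00257). The 5 calls stand beside 25.6% of all genes called lower and 51.8% either way, with a median of -1.40 beside 0.015.

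What white matter held of these transcripts was uneven. The cluster led by Opalin, Ccn2 and Mal gave 46.7% and 46.1% of the area's UMIs, yet 89.7% and 89.1% of its Egr1, 90.7% and 88.3% of its Egr3 and 94.7% and 97.3% of its Nr4a2. Opalin and Mal are myelin genes, and Ccn2 is known from the deepest neurons of the neocortex. Egr1 was 124 and 179 CPM in that cluster. Nr4a1 was spread more evenly, with 56.4% and 59.4% of its UMIs in that cluster, at 14.96 and 26.0 CPM. Neuron markers summed to 1445 and 1724 CPM over all white matter.

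Other genes of the same pathway were taken from 5 lists: the Nab corepressors and RXR partners (5 tested), the SRF and CREB pathway (14), AP-1 and other immediate early genes (16 of 17 tested), MAP kinase feedback (8) and late activity-regulated genes (14). In thalamus, 10 AP-1 and other immediate early genes were lower and 2 higher, 7 of the SRF and CREB pathway were lower and 2 higher, 3 feedback genes were lower, and 7 late genes were lower and 3 higher. Their list medians were -0.84, -0.50, 0.046 and -0.46 in that order, beside 0.053 over all genes. Of all genes 48.8% were called and 23.3% were lower, so the feedback list, with 3 of 8, lay near that background. Ier5 was 10.2-fold lower (log2 -3.35 ± 0.11, adjusted p = 2.44e-45) and Homer1, a postsynaptic scaffold, 5.55-fold (-2.47 ± 0.10, adjusted p = 1.26e-37). Nab2, a corepressor that Egr proteins induce against themselves, was 2.19-fold lower (-1.13 ± 0.17, adjusted p = 2.46e-08), while Nab1 was 1.35-fold higher (0.43 ± 0.13, adjusted p = 0.00499). These were among 2 lower and 1 higher of the 5 partners. In white matter all 14 late genes were lower, Bdnf by 3.36-fold (-1.75 ± 0.19, adjusted p = 8.38e-13), and their median was -1.12 beside 0.015 over all genes. Of AP-1 and other early genes 7 were lower and 4 higher there, of the SRF and CREB pathway 9 and 2, of the feedback genes 4 and 0, and of the partners 1 and 2. These counts stand beside 51.8% of all genes called and 25.6% lower. Klf4 (2.14 ± 0.84, adjusted p = 0.0266) and Rxrg (2.27 ± 0.86, adjusted p = 0.0216) were among those higher, both at low levels. Klf4 had 3.49 and 3.42 CPM in white matter, against 0 to 5.16 in the layers of mouse 1 and 0 to 1.66 in those of mouse 2. Rxrg had 2.54 and 3.99 CPM, against 0 to 5.1 and 0 to 1.19. In mouse 1 single layers thus lay above white matter for both genes.

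In CA1 the listed genes did not all go with the 6 tested members. Dusp5, a phosphatase that ends ERK signalling, was 3.34-fold higher (log2 1.74 ± 0.26, adjusted p = 9.54e-08), and Sorcs3, a late receptor gene, 3.10-fold higher (1.63 ± 0.19, adjusted p = 6.35e-11). Jun was 3.55-fold lower (-1.83 ± 0.21, adjusted p = 2.88e-11) and Btg2 5.46-fold lower (-2.45 ± 0.50, adjusted p = 9.36e-05). By list, 3 AP-1 and other early genes were higher and 2 lower, 2 feedback genes were higher and 1 lower, and 5 late genes were higher and 2 lower. The SRF and CREB pathway had 1 lower gene, Crtc1, and the partners none. Together 10 of the 57 were higher and 6 lower in CA1, beside 16.6% of all genes called. List medians in CA1 lay between 0.029 and 0.39, beside 0.012 over all genes and 1.12 over the members. The dentate granule area showed these 4 genes the other way round: Jun was 4.69-fold higher (2.23 ± 0.15, adjusted p = 2.76e-22), Btg2 5.89-fold higher (2.56 ± 0.31, adjusted p = 3.45e-10), Dusp5 4.87-fold lower (-2.28 ± 0.43, adjusted p = 1.69e-05) and Sorcs3 2.82-fold lower (-1.49 ± 0.29, adjusted p = 3.24e-05). Both comparisons use the same 4 areas, so they are not independent. In the dentate granule area 10 of the 57 listed genes were higher and 10 lower, beside 20.4% of all genes called. In CA2/CA3, where Nr4a3 was high, 5 late genes were higher and 2 lower. Ptgs2, the inducible prostaglandin synthase, was 3.56-fold higher (1.83 ± 0.26, adjusted p = 2.38e-08), and Ier5 was 2.01-fold lower (-1.01 ± 0.15, adjusted p = 8.24e-08). Of all 57 listed genes, 7 were higher and 6 lower in CA2/CA3, beside 13% of all genes called. In the neuropil 8 were higher and 6 lower, beside 28.4% of all genes, a share no smaller than that of the lists. There Bdnf, a neurotrophin, was 2.57-fold lower (-1.36 ± 0.15, adjusted p = 6.15e-12).

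Fos, the AP-1 subunit, was 3.68-fold lower in the hippocampal cell layers than in the neocortical layers (log2 -1.88 ± 0.25, adjusted p = 1.59e-09), with 6 genes of its list lower and 1 higher and 18 of all 57 listed genes lower and 11 higher, beside 26.3% of all genes called. Mef2c, a factor of the SRF and CREB list, was 4.42-fold lower (-2.15 ± 0.09, adjusted p = 6.58e-35). In layer 6, where 5 of the 57 were higher and 3 lower beside 6.75% of all genes called, Dusp6 was 2.28-fold lower (-1.19 ± 0.23, adjusted p = 0.000131), Klf10 1.59-fold higher (0.66 ± 0.20, adjusted p = 0.0222) and Nptx2 1.66-fold higher (0.73 ± 0.23, adjusted p = 0.0331). In retrosplenial cortex, with 2 higher and 8 lower beside 8.83% of all genes called, Klf10 (2.91-fold, -1.54 ± 0.25, adjusted p = 2.71e-06) and Nptx2 (2.79-fold, -1.48 ± 0.29, adjusted p = 1.00e-04) were lower. In the upper area Dusp14 was 1.84-fold higher (0.88 ± 0.18, adjusted p = 0.000901), 1 of 2 higher and 1 lower. Over the 5 lists, layers 4 and 5 gave 0 edgeR calls of 57 genes each, with 7 and 5 at an unadjusted p under 0.05.

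Over the 16 areas, the levels of Egr3 and Egr4 went together most closely of the 21 pairs (Pearson r of log2(CPM + 5) 0.93 in mouse 1 and 0.94 in mouse 2). Egr1 followed Egr3 (0.87 and 0.91) and Egr4 (0.85 and 0.93). Nr4a1 went with Egr4 at 0.66 and 0.91. Nr4a2 stood apart from the Egr genes and Nr4a1, with r from 0.25 to 0.37 apart from Egr2 (0.00 and 0.32), and went with Nr4a3 at 0.73 and 0.70. These values describe areas that share a section and its depth, and much of them is the step between cortex and hippocampus and the other areas. Over the 9 areas of cortex and hippocampus alone, Egr3 and Egr4 had r of 0.69 and 0.66 and were no longer the closest pair. Egr3 and the scarce Egr2 had 0.80 and 0.75 there, and Egr4 and Nr4a1 had 0.40 and 0.89. Nr4a2 and Nr4a3 had 0.81 in mouse 1 and 0.35 in mouse 2. Nr4a3 had r of -0.10 and -0.16 with Egr1 and -0.05 and -0.10 with Egr3. Spot by spot within the neocortical layer areas, thinned to a fixed depth, r lay between -0.11 and 0.10 over all pairs and both mice; such weak values in sparse counts show nothing.

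**Figure D5:**
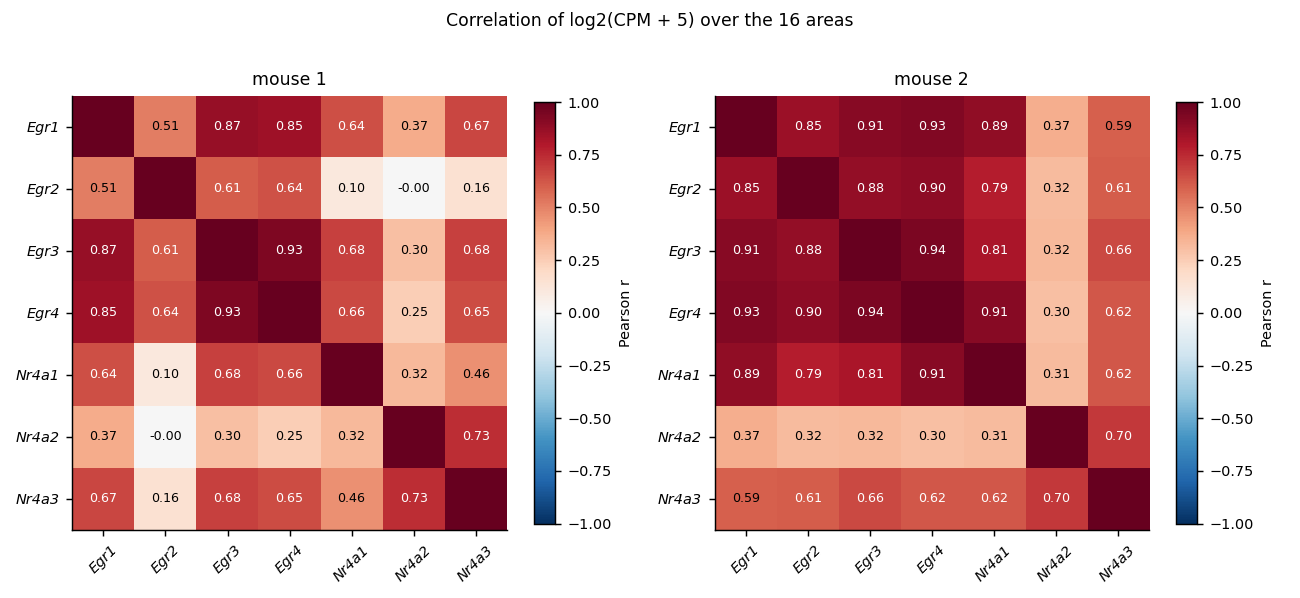
Pearson r between each pair of the 7 genes over 16 areas, of log2(CPM + 5), for each mouse. Egr3 and Egr4 have the highest values (0.93 and 0.94), and Nr4a2 the lowest with the Egr genes.

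Of 10159 genes with at least 200 UMIs in each section, those with the most similar order of areas were named for each member by mean r over the 2 mice. For Egr1 they were Prkcb (0.93), Vxn (0.92) and Ier5 (0.92), for Egr3 Kcnh3 (0.97), Inka2 (0.96) and Synpo (0.96), and for Egr4 Akap5 (0.94), Inka2 (0.93) and Cort (0.93). For the scarce Egr2 they were Kcnv1 (0.80), Lzts3 (0.76) and Cpne5 (0.75). For Nr4a1 they were Mpped1, Pradc1 and Strn4 (0.82 each), for Nr4a2 Pde2a (0.86), Nfat5 (0.80) and Cacnb3 (0.79), and for Nr4a3 Enc1 (0.88) and Mmd (0.86). Ier5 was the single gene of these that stands in a pathway list. All these values describe 16 areas of 2 sections.

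The image left and right sides were compared within each area, since the injection was on 1 side that the labels do not tie to the image. Of 96 pairs of member and area, edgeR called 0 and DESeq2 0, beside 0.0233% of all gene and area pairs, and 10 had an unadjusted p under 0.05. The lowest adjusted p was 0.125, for Egr3 in the meninges, where mouse 1 had 0 and 8.17 CPM (left, right) and mouse 2 had 8.17 and 57.5. Nr4a3 in the dentate granule area was lower on the left in both mice, at 8.41 and 24.2 CPM in mouse 1 and 12.2 and 39.0 in mouse 2 (log2 -1.63 ± 0.49, adjusted p = 0.780). Egr1 there was 54.7 and 80.5 CPM, and 68.1 and 99.6 (log2 -0.53 ± 0.26, adjusted p = 0.992). The mice shared a direction in 54 of the 96 pairs. The fit holds 1 left-minus-right term per area for both mice. If the injected side lay on opposite image sides in the 2 sections, a difference would cancel in that term. The 0 calls therefore do not show that the sides were alike.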

How the data were processed

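The labels' protocols describe poly(dT) capture of RNA from methanol-fixed, DAPI-stained sections after 12 min of permeabilisation. Per the file headers, the authors counted UMIs per gene and spot with Space Ranger 1.3.1, so the values are deposited raw counts; the submitters' processing notes name the build mm10, and no aligner setting is stated in the labels or headers. Spots under tissue with at least 500 UMIs were used. With scanpy 1.11.5 (Python 3.11.15), log-normalised counts were clustered (2000 variable genes, 30 components, Leiden resolution 3) without 65 genes, the 7 members and their lists among them. The 37 clusters were named from 18 marker sets. Hippocampal areas were whole clusters. Cortical clusters other than the retrosplenial one were pooled and divided into the layer areas by marker scores averaged over a spot and its array neighbours. This pool took in clusters that failed the naming rule, led by Lamp5, Igfbp6 and Mef2c (285 and 148 spots) and by Hbb-bs, Hbb-bt and Hba-a1 (22 and 7 spots). A further 6 clusters stayed unnamed. The 7 genes and the lists were chosen with earlier results of these data known, and the naming thresholds were set after looking at marker genes, not at the members.

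Counts were summed per mouse and area (32 libraries) and fitted in edgeR 4.0.16 (R 4.3.3) with area and mouse as terms, TMM scaling, filterByExpr (12501 genes kept) and the quasi-likelihood test; p-values were Benjamini-Hochberg adjusted over all genes. Residual degrees of freedom were 15. The standard error is the log2 difference over the square root of F. Sides were fitted in the same way on 64 libraries (11543 genes). Mouse is the replicate block because all areas of a mouse come from 1 section. The rule for named genes took the 7 members, the 3 genes most like each, and up to 2 genes per list and comparison with the largest change past the threshold; 1 of the genes most like Nr4a3 is not reported here. Symbols shared by several IDs (78 genes) were kept apart by ID. The script was tested on simulated counts. Alternatives were other scaling, DESeq2 1.42.0, no count filter, other area definitions, each section clustered alone, no block, and each mouse left out. Poisson intervals and the limit of 3 counts for a count of 0 cover counting error only. No spot-level test was made, and doublets do not apply to spots.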

Additional observations from a re-analysis of the deposited data

Results flagged for a closer look

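The 6 clusters left without an area name hold 395 spots in mouse 1 and 393 in mouse 2 and entered no comparison. The 6 tested genes were present in them above the level of 3 counts in both mice. Egr1 was 34.8 and 52.8 CPM there (mouse 1, mouse 2), Egr3 9.60 and 16.5, and Egr4 4.27 and 4.77. Nr4a1 was 9.96 and 12.8 CPM, Nr4a2 12.1 and 10.6, and Nr4a3 10.3 and 14.1. Nr4a2 was unevenly spread among these clusters. It was 72.7 and 44.9 CPM in the one led by Ccdc153, Tmem212 and Rarres2, and 28.5 and 28.1 in the one led by Ttr, Ddn and Wipf3. Ccdc153 is known from ciliated ependymal cells. The cluster it led also held 4 habenula markers among its leading genes, and Nr4a2 was 134 and 129 CPM in the habenula area. The cause of the uneven spread was not tested.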

How the results depend on the processing

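Of the 37 calls of a member, 23 held under every alternative with a test that could be run for their comparison. With mouse 1 left out, 22 of the 72 log2 differences moved by more than the SD between mice, and with mouse 2 left out 39 did. No called difference changed sign. These values are differences of log2 CPM with a prior count of 2 and not edgeR estimates. In these counts the change of measure cannot be told apart from the loss of a mouse. For Egr4 in thalamus, both mice alone (-3.80 and -3.98) gave a smaller difference than edgeR (-4.64). Of the alternatives with a test, giving each spot to its highest marker score turned most signs, 15 of 72. In it, 41.2% and 62.2% of the upper area's spots (mouse 1, mouse 2), and 48.1% and 45.9% of layer 4's, lay outside cortex and hippocampus in the areas reported above. Under it, log2 differences turned to -0.27 (Egr3) and -0.49 (Nr4a3) in the upper area, -1.42 (Egr4) in layer 4, 0.047 (Egr3), 0.79 (Egr4), 0.75 (Nr4a2) and -0.094 (Nr4a3) in layer 5, and 0.36 (Egr4) and 0.29 (Nr4a1) in layer 6. They also turned to 0.058 (Egr4) and 0.030 (Nr4a3) in the neuropil, 0.11 (Nr4a1) and 0.34 (Nr4a3) in retrosplenial cortex, and 0.084 (Egr3) and 0.28 (Nr4a1) between hippocampal cell layers and neocortex. Members called became 2 in the upper area, 2 in layer 4, 1 in the neuropil and 0 in retrosplenial cortex, and genes called 460 in layer 4 (main value 13), 1367 in layer 6 (844), 1637 in the dentate granule area (2547), 1237 in CA1 (2080), 890 in the neuropil (3550) and 129 in retrosplenial cortex (1104).

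Without the replicate block, members called fell to 0 in the upper area, 1 in layer 6 and 1 in the neuropil, and genes called to 113, 3, 8 and 404 in the upper area and layers 4, 5 and 6, 1059 in CA2/CA3 and 573 in retrosplenial cortex; apart from the 8 member calls named beside the results, the block changed no member's call. Nr4a3 in the upper area (main log2 0.015) turned to -0.0076 without the block, -0.0016 without the count filter, -0.19 with each section clustered alone and -0.040 at the lower clustering resolution. Nr4a1 in the neuropil (-0.0065) turned to 0.010 with relative log expression factors, 0.034 in DESeq2, 0.025 without the filter and 0.041 at the lower resolution. With each section clustered alone, Nr4a1 in the upper area was 0.022 and Egr4 in layer 4 -0.055. None of the values in these turns was called, except Egr4 in layer 4 by highest score (adjusted p = 0.00678). Genes called were 7 in layer 4 by DESeq2 and 46 in layer 5 without the filter (28 with it). Nr4a2 in white matter was called lower with sections clustered alone (-0.85, adjusted p = 0.00608) and at the lower resolution (-0.86, adjusted p = 0.00257).

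The median r over the 21 pairs (0.648) was 0.553 by highest score and 0.761 with sections clustered alone, and 0.639 to 0.704 with 1 mouse left out. Left out in turn, a mouse leaves 1 library per area and values without a test. Contrasts over spots with at least 4 neighbours of their area could not be fitted, since layer 4, CA1 and the dentate granule area kept under 20 such spots. Sections clustered alone gave no CA2/CA3 or retrosplenial area in mouse 1. In that setting no hippocampal comparison was run, CA1 and the dentate granule area among them, since each uses CA2/CA3. The comparison of hippocampal cell layers with neocortex and the retrosplenial one were not run either. The cause of these changes was not tested. Low counts limit Egr2 everywhere and Egr4 and the Nr4a genes in small areas.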
